A study of Arabidopsis thaliana with 6 samples.

Results

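MA-Line1 is an *Arabidopsis thaliana* line that carries *35S:MA-JcERFVII2*, a *Jatropha curcas* group VII ethylene response factor (ERFVII) under the constitutive CaMV 35S promoter, with alanine in place of cysteine at residue 2. It was compared with its background, the wild type Col-0, over all genes of the deposited count table. The comparison takes 4 of the 6 libraries of the series, chosen by their genotype label, 2 replicates of each genotype. MC-Line3, which carries the form with the cysteine, makes up the other 2 libraries and entered only the shared estimate of the spread. All seedlings were labelled 10 d old (the study's text gives a younger age), were grown on plates in air and were harvested whole when the 16 h light period ended. The stabilized form was profiled in 1 homozygous line, so effects of the protein and effects of that line cannot be told apart. *JcERFVII2* is not among the genes counted, so the label could not be checked on the transgene itself.

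ERFVII proteins are transcription factors that plant cells use to sense oxygen. In air, plant cysteine oxidases oxidize the cysteine at the N-terminus, after which arginyl transferases and the N-recognin PRT6 mark the protein for degradation. When oxygen falls the proteins persist and switch on fermentation and other hypoxia genes, and a protein without the cysteine escapes this route in air. The residue in question is set by a single codon, which the study placed in the primers used to clone each form. The start of the 2 open reading frames is shown from the start codon on, with codon 2 in capitals.
MA form: atgGCCggaggtgctattatttc
MC form: atgTGCggaggtgctattatttc

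The 2 Col-0 libraries held 58445620 and 65271057 counts on genes, and the 2 MA-Line1 libraries held 63891492 and 55279731. The top 10 genes of each library held 7.85% to 10.2% of its counts. Replicates differed more in Col-0 than in MA-Line1, with an SD over genes of 0.397 and 0.32 for the log2 ratio of 1 replicate to the other. The gap was wider on the counts themselves. Their mean chi-square per gene, against a split by library size, was 28.3 in Col-0 and 5.75 in MA-Line1. Values are given as CPM, which is counts relative to library size, scaled by edgeR's trimmed mean of M values. Seed storage genes were near 0 in every library, antenna genes were abundant, and markers of root hairs and of the endodermis were detected in all 4 libraries. The series text calls the replicates independent and says no more of how they were raised, so p-values measure the spread between these libraries.

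Of 21206 genes tested, 7864 differentially expressed genes (DEGs) were called at an adjusted p below 0.05 by the quasi-likelihood test of edgeR, adjusted after Benjamini and Hochberg, which is 37.1% of the genes. Of these, 3807 were upregulated (18% of the genes tested) and 4057 were downregulated (19.1%). More than 2-fold changes were found for 624 upregulated genes (2.94%) and 1009 downregulated genes (4.76%). The median log2 fold change was 0.01 over all genes tested, and its median size among the DEGs was 0.54. Leaving out MA-Line1 replicate 1 left 4379 DEGs and leaving out MA-Line1 replicate 2 left 4663. With the libraries scaled by their size alone, the median log2 fold change of all genes moved to 0.18 and the upregulated share of the DEGs moved from 48.4% to 73.5%. No DEG remained when the dispersion was estimated without the genotypes in edgeR's likelihood ratio test, where 2587 genes had an unadjusted p below 0.05. That estimate counts the differences between genotypes as spread, so it cannot tell whether the calls hold. DESeq2 called 7361 DEGs. The study, which also used edgeR with a cutoff of 0.05, reported far fewer DEGs for this line, and the cause was not tested. The shares above are the background against which every list of genes below is read.

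Across 32 lists of genes with known roles, the lists of triterpene clusters, root hair markers and phosphate starvation had the lowest medians, and the hypoxia genes of the study, chaperones, detoxification genes and glutathione transferases had the highest. The plot of all list members shows that most lists held genes that moved in both directions.

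**Figure D1:**
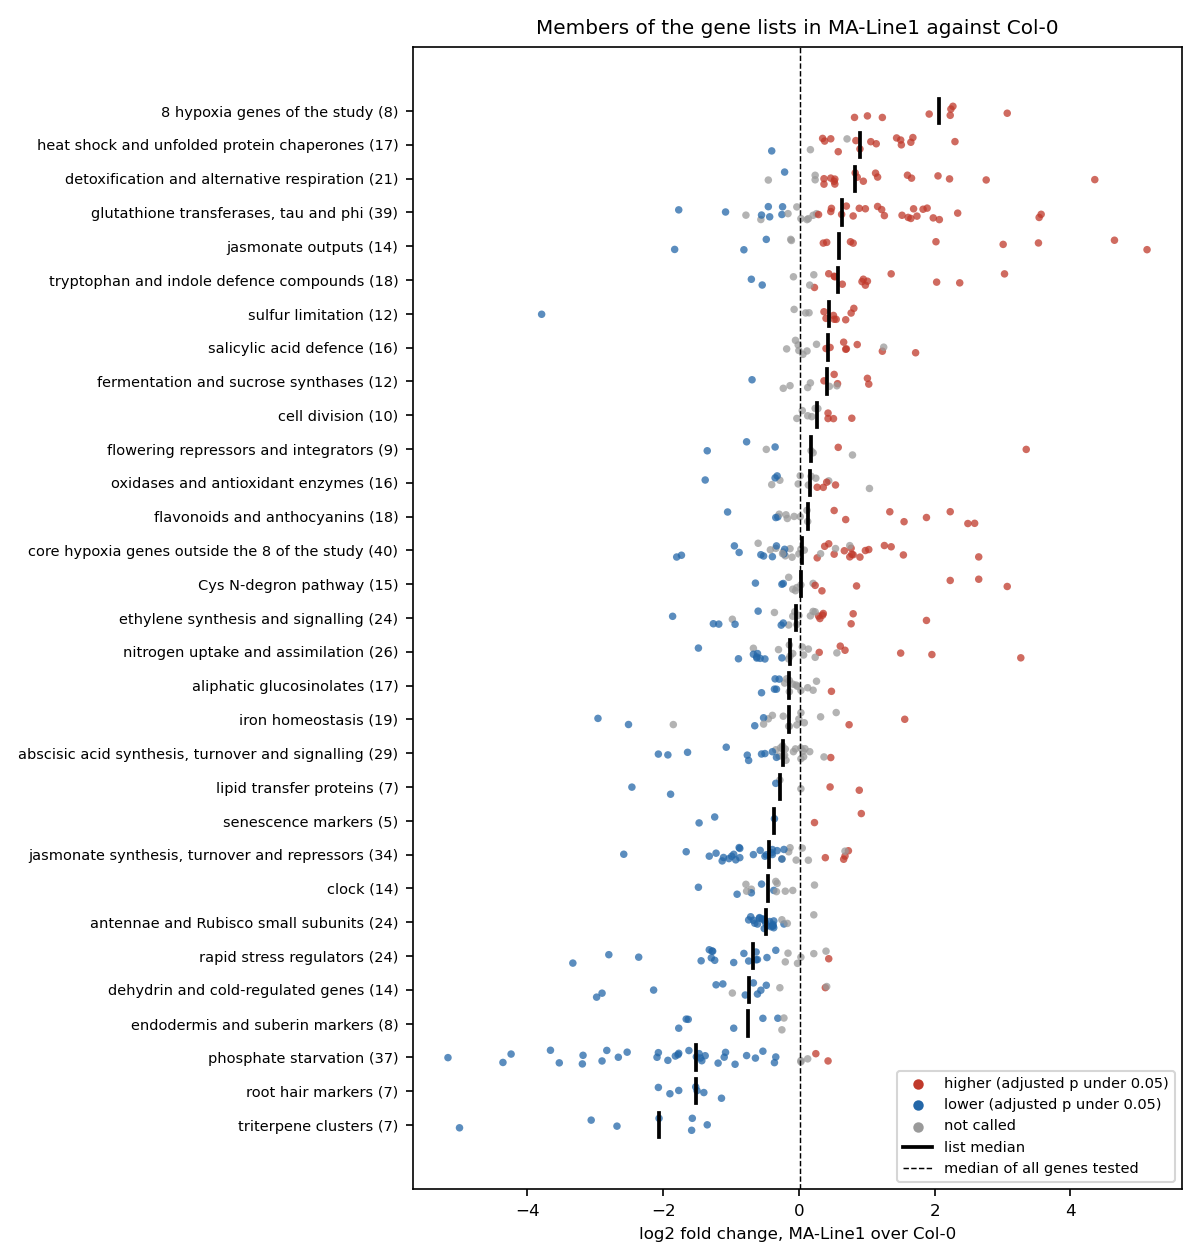
Each point is 1 tested gene of a list and its position is the log2 fold change of MA-Line1 over Col-0 (red, upregulated; blue, downregulated; grey, not called; number tested in brackets). Black bars are list medians, from -2.06 for triterpene clusters to 2.07 for the 8 hypoxia genes of the study, and the dashed line is the median of all genes tested, 0.01.

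The largest changes were in genes at or near 0 in one genotype. *AT2G06845*, annotated as a beta-galactosidase related protein, had 0 counts in both Col-0 libraries and 589 and 550 counts in MA-Line1, which is at least 175-fold higher against a floor of 3 counts per library; 24.3% of the gene is overlapped by another. *PAP25*, a purple acid phosphatase, had 54 and 91 counts in Col-0 and 0 in both MA-Line1 libraries, at least 25.7-fold lower against the same floor. *AT5G17340*, a putative membrane lipoprotein, had 262 and 374 counts in Col-0 and 1 and 2 counts in MA-Line1. That is a ratio of 230 with a 95% exact interval for counting error of 78.2 to 1116, and 75.2% of this gene is overlapped by another annotated gene.

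Among the 10 largest increases were several genes of known defence families. *PDF1.2c*, a plant defensin, had 0.186 and 0.323 CPM in Col-0 and 8.74 and 9.55 CPM in MA-Line1 (log2 fold change 5.13, SE 0.24, adjusted p = 3.74e-07). *THI2.1*, a thionin that acts as an antimicrobial peptide, had 1 and 13 counts in Col-0 and 158 and 217 counts in MA-Line1. *NHL25*, of the NDR1/HIN1-like family of defence proteins, had 2 and 12 counts in Col-0 and 176 and 165 counts in MA-Line1. The other increases in that list were *AT2G15780*, a cupredoxin (log2 fold change 5.89), *BGLU27*, a beta-glucosidase (4.76), *AT4G16820*, an alpha/beta-hydrolase (4.73), *AT2G05914*, a non-coding RNA of which 31.7% is overlapped (4.51), and *AT1G30170* and *AT5G55150*, which share the domain of unknown function DUF295 (4.89 and 4.75).

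Among the 10 largest decreases were genes known from phosphate starvation. *MIR399d*, which gives rise to the microRNA that phosphate-starved plants send against *PHO2*, had 6.77 and 8.92 CPM in Col-0 and 0.0591 and 0.0696 CPM in MA-Line1 (log2 fold change -6.89, SE 0.38, adjusted p = 6.64e-07). *PAP5*, another purple acid phosphatase, had 8.32 and 12.9 CPM in Col-0 and 0.0591 and 0.122 CPM in MA-Line1. *G3Pp3*, a glycerol-3-phosphate permease by family, had 68 and 161 counts in Col-0 and 0 and 2 counts in MA-Line1, a ratio of 124 with a counting interval of 33.9 to 1030. The rule that chose these genes asked for libraries that did not overlap between the genotypes, so nothing is read from that here; over all genes tested the libraries did not overlap for 70.4%. *OCT1*, an organic cation and carnitine transporter, fell by 5.55 on the log2 scale, *AT1G19210*, an ERF family gene, fell by 6.57, and *AT1G21529*, *MRD1* and *AT5G50360* fell by 5.47, 5.26 and 5.86. Of *AT1G21529*, 31.3% of the 50-base words recur at other places in the genome, and *MRD1* is overlapped over 98.8% of its length.

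The comparison asks which genes differ in air in a line built to express an ERFVII that escapes degradation, and hypoxia genes come first. All 8 hypoxia genes that the study named were upregulated, with a median log2 fold change of 2.07, but they were picked by the study from these same libraries, so the count is not independent evidence. *PCO1*, the cysteine oxidase that starts the degradation of ERFVII proteins, had 5.10 and 5.82 CPM in Col-0 and 45.4 and 46.4 CPM in MA-Line1 (log2 fold change 3.07, SE 0.09, adjusted p = 1.06e-07). *HB1*, a haemoglobin that scavenges nitric oxide, had 10.1 and 12.4 CPM in Col-0 and 53.2 and 55.6 CPM in MA-Line1 (log2 fold change 2.27, SE 0.12, adjusted p = 5.85e-07). The MA-Line1 libraries lay above both Col-0 libraries for each of these genes, while the genotypes did not overlap for 70.4% of all genes tested.

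The other core hypoxia genes were split. Of 40 tested, 16 were upregulated and 10 were downregulated, with a median log2 fold change of 0.05. Without MA-Line1 replicates 1 and 2 in turn, 12 and 13 were called higher and 4 and 4 lower, and with scaling by library size alone 17 were called higher and 5 lower. *HRE2*, an ERFVII gene that is itself switched on by hypoxia, had 0.875 and 0.614 CPM in Col-0 and 4.41 and 4.91 CPM in MA-Line1 (log2 fold change 2.65, SE 0.27, adjusted p = 3.49e-05). *AT4G10270*, a wound-responsive family gene by annotation, rose from 4.06 and 4.46 CPM to 11.9 and 12.99 CPM (log2 fold change 1.54), but 97.1% of it is overlapped by other genes. *HRA1*, a trihelix factor that restrains ERFVII proteins, rose from 7.54 and 7.64 CPM to 14.8 and 13.6 CPM (log2 fold change 0.90). The calls of *HRE2* and *HRA1* differ from the study, as do those of the ERFVII genes *RAP2.2* and *RAP2.3*, called higher and lower here. From the same libraries the study found no differential expression of the endogenous ERFVII genes and saw no rise of *HRA1*. It also reported far fewer DEGs for this line. The cause of these differences was not tested. In the opposite direction, *PP2-A13*, a phloem lectin-like protein, had 133 and 107 CPM in Col-0 and 36.2 and 36.5 CPM in MA-Line1 (log2 fold change -1.73, SE 0.10, adjusted p = 8.62e-07), and 27.7% of it is overlapped by another gene. *ANR1*, a MADS-box gene of root nitrate responses, was also called lower (log2 fold change -1.80), and this call was lost without Col-0 replicate 2 (-0.98) and without either MA-Line1 library (-2.10 and -1.58).

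Fermentation changed modestly. *ADH1*, alcohol dehydrogenase, had 10.9 and 10.3 CPM in Col-0 and 21.2 and 21.9 CPM in MA-Line1 (log2 fold change 1.03, SE 0.10, adjusted p = 2e-05). *PDC1*, pyruvate decarboxylase, had 3.42 and 3.44 CPM in Col-0 and 7.15 and 6.68 CPM in MA-Line1 (log2 fold change 1.01, SE 0.13, adjusted p = 0.000182). *SUS4*, a hypoxia-induced sucrose synthase, was not called, with 6.10 and 7.21 CPM in Col-0 and 6.00 and 5.32 CPM in MA-Line1 (adjusted p = 0.196). Of the 12 fermentation and sucrose synthase genes, 5 were upregulated and 1, *SUS3*, was downregulated, and 3 were upregulated without MA-Line1 replicate 1. The call of *SUS3* at -0.69 was lost without Col-0 replicate 2 (-0.33) and without either MA-Line1 library (-0.72 and -0.67).

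Within the Cys N-degron pathway, the oxidases parted into 2 groups. *PCO1* and *PCO2* were upregulated, the latter from 3.22 and 3.96 CPM to 17.77 and 15.9 CPM (log2 fold change 2.23, SE 0.13, adjusted p = 9.72e-07). *PCO3*, *PCO4* and *PCO5* were not called, with log2 fold changes of -0.05, -0.09 and -0.03. The arginyl transferase gene *ATE1* and the N-recognin gene *PRT6* were called lower by small amounts, -0.23 and -0.25. Both calls were lost with scaling by library size alone (-0.06 and -0.08) and without either MA-Line1 library, and that of *ATE1* also without Col-0 replicate 1 (-0.18) and in DESeq2 (-0.24). Over the 15 genes of the pathway 6 were upregulated and 3 were downregulated, or 3 and 1 without either MA-Line1 library. Of 7 tested substrates of the pathway, 4 were upregulated and 1, *RAP2.3*, was downregulated, with log2 fold changes from -0.64 to 2.65. Their summed level was lower in MA-Line1, at 1631 and 2108 CPM in Col-0 and 1346 and 1383 CPM in MA-Line1. Among them *ZPR2*, a small protein that controls shoot meristem activity, was called higher at 0.85. The call of *ZPR2* was lost without Col-0 replicate 2 (0.68) and without either MA-Line1 library (0.90 and 0.80).

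Phosphate starvation genes fell together. Plants short of phosphate free the factor PHR1 from SPX proteins, and PHR1 then raises transporters, phosphatases, non-coding RNAs that buffer miR399, and enzymes that swap phospholipids for galactolipids and sulfolipids. Of 37 tested genes of this list, 32 were downregulated, 26 of them more than 2-fold, and 2 were upregulated, with a median log2 fold change of -1.51. The summed level of the list was 3087 and 4288 CPM in Col-0 and 1302 and 1282 CPM in MA-Line1. The Col-0 libraries differed from each other by more than the MA-Line1 libraries did, and both lay above them. Whole seedlings were profiled, in which fewer cells of a type and less RNA per cell cannot be told apart.

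Among the regulators, *SPX3* had 26.4 and 43.3 CPM in Col-0 and 3.19 and 2.85 CPM in MA-Line1 (log2 fold change -3.53, SE 0.22, adjusted p = 1.53e-06). *IPS1*, a non-coding RNA that sequesters miR399, had 63.5 and 104 CPM in Col-0 and 1.86 and 2.85 CPM in MA-Line1 (log2 fold change -5.17, SE 0.25, adjusted p = 3.86e-07). *AT4*, a second RNA of this kind, had 392.4 and 643 CPM in Col-0 and 39.0 and 43.1 CPM in MA-Line1 (log2 fold change -3.66, SE 0.20, adjusted p = 6.27e-07). The gene of the central factor, *PHR1*, was level, at 56.9 and 58.4 CPM in Col-0 and 59.8 and 58.0 CPM in MA-Line1, and it was called only with scaling by library size alone (0.20, adjusted p = 0.0432). The 2 upregulated members were *PHL1*, a relative of *PHR1*, and *PHO2*, which encodes the ubiquitin-conjugating enzyme that limits phosphate uptake, at 0.43 and 0.25.

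All 10 tested transporters were downregulated. *PHT1-4*, a high-affinity phosphate transporter of roots, had 86.9 and 126 CPM in Col-0 and 36.4 and 38.5 CPM in MA-Line1 (log2 fold change -1.51, SE 0.14, adjusted p = 2.07e-05). *PHT1-2* and *PHT1-8* fell by 4.24 and 4.36 on the log2 scale, but 40.4% and 20.8% of their 50-base words recur at other places in the genome, so reads could be split between copies. All 17 genes of phosphate release and lipid remodelling were downregulated too. *MGD3*, a galactolipid synthase of phosphate-starved tissue, had 40.8 and 62.0 CPM in Col-0 and 6.79 and 6.96 CPM in MA-Line1 (log2 fold change -2.90, SE 0.18, adjusted p = 1.48e-06).

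**Figure D2:**
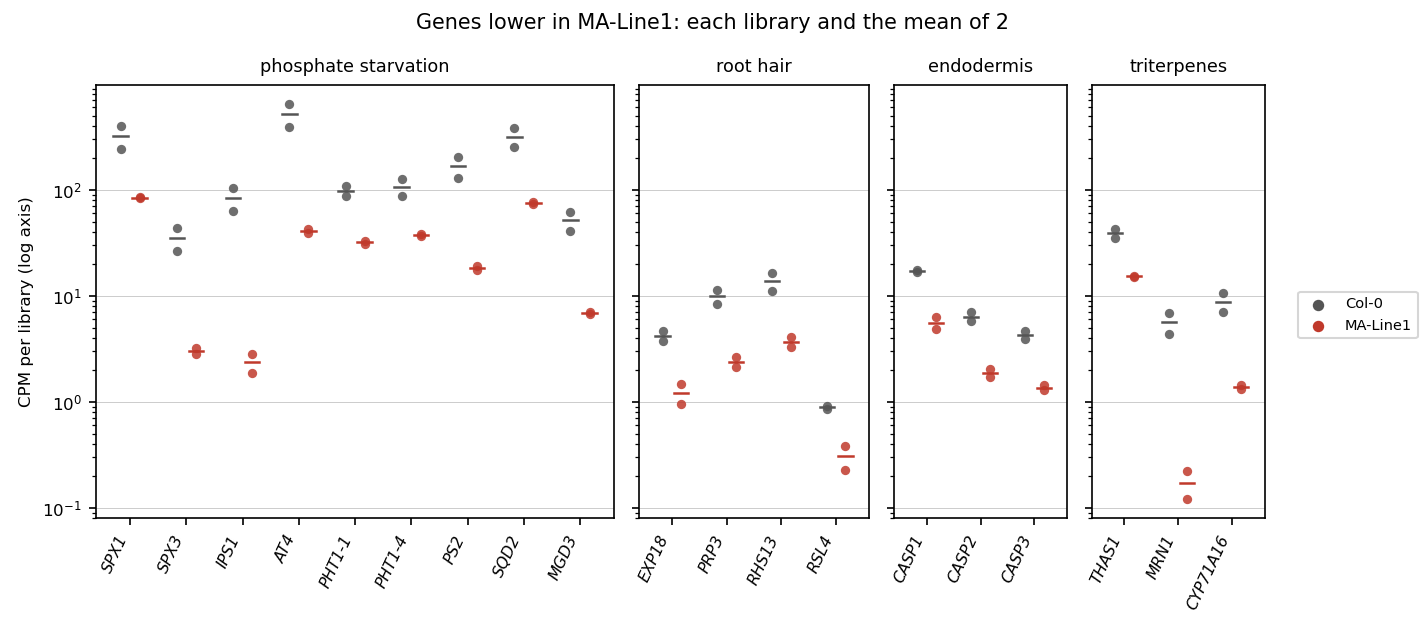
Points are the 2 libraries of each genotype (grey, Col-0; red, MA-Line1), short lines are means, and the vertical axis is CPM on a log axis. In every gene shown both MA-Line1 libraries lay below both Col-0 libraries, from *SPX1*, at 241 and 402 against 86.0 and 83.2 CPM, to *MRN1*, at 4.39 and 6.92 against 0.222 and 0.122 CPM. Over all genes tested the genotypes did not overlap for 70.4%, in either direction.

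Root cell type markers moved in the same direction. All 7 root hair markers were downregulated more than 2-fold, with a median log2 fold change of -1.52, and their summed level was 31.3 and 43.1 CPM in Col-0 and 11.2 and 10.4 CPM in MA-Line1. *PRP3*, a cell wall protein of root hairs, had 8.39 and 11.4 CPM in Col-0 and 2.11 and 2.63 CPM in MA-Line1 (log2 fold change -2.07, SE 0.18, adjusted p = 1.5e-05). *RSL4*, the transcription factor that sets root hair growth, was called at -1.52, and this call was lost without MA-Line1 replicate 2 (-1.20, adjusted p = 0.106). Of the 8 endodermis and suberin markers, 6 were downregulated, or 3 without MA-Line1 replicate 1, with a median of -0.75 and a summed level of 85 and 92.9 CPM in Col-0 and 53.5 and 56.2 CPM in MA-Line1. *CASP1*, which builds the Casparian strip, had 16.9 and 17.5 CPM in Col-0 and 4.91 and 6.24 CPM in MA-Line1 (log2 fold change -1.63, SE 0.13, adjusted p = 1.01e-05). No marker of the lists was at 0 in either genotype. The part of these tissues in the fall of the phosphate genes was not tested.

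The triterpene clusters, sets of neighbouring genes that make root triterpenes, fell most as a group. All 7 genes were downregulated more than 2-fold, with a median log2 fold change of -2.06. *MRN1*, marneral synthase, fell by 5.0 on the log2 scale (SE 0.35, adjusted p = 3.53e-06). The P450 genes of the same cluster, *CYP705A12* and *CYP71A16*, fell by 3.06 and 2.68. The thalianol cluster was lower by less, with a median of -1.58, and its summed level was 118 and 159 CPM in Col-0 and 47.3 and 49.5 CPM in MA-Line1. The endodermis and root hair markers given above moved with these genes, and their part was not tested.

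Jasmonate genes parted by branch. Jasmonate releases the factor MYC2 from JAZ repressors for wound and insect responses, while jasmonate with ethylene drives defensins through ERF1 and ORA59. Of 34 genes of synthesis, turnover and repression, 23 were downregulated and 4 were upregulated, with a median log2 fold change of -0.44. The *JAZ* repressors made up 11 of the 23, and 1 of 12, *JAZ11*, was not called. *JAZ7* had 22.2 and 27.5 CPM in Col-0 and 8.03 and 7.74 CPM in MA-Line1 (log2 fold change -1.66, SE 0.13, adjusted p = 7.42e-06). *CYP94B1*, which oxidizes active jasmonate, fell from 20.9 and 27.3 CPM to 4.14 and 3.95 CPM (log2 fold change -2.58, SE 0.15, adjusted p = 1.09e-06). *LOX2*, a chloroplast lipoxygenase of jasmonate synthesis, went the other way, from 139 and 157 CPM to 244 and 246 CPM (log2 fold change 0.73, SE 0.08, adjusted p = 6.45e-05).

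The ERF branch of jasmonate output held 9 tested genes, of which 8 were upregulated, with a median log2 fold change of 2.02. The study had already named *PDF1.2*, *PDF1.2b*, *PDF1.2c* and *PDF1.3* as induced in these same libraries, so this count and median are not independent evidence. *PDF1.2*, the defensin commonly used to mark this branch, had 0.670 and 1.02 CPM in Col-0 and 8.97 and 10.8 CPM in MA-Line1 (log2 fold change 3.53, SE 0.22, adjusted p = 1.57e-06). The regulators *ERF1* and *ORA59* were called at 0.80 and 0.41, and both calls were lost without either MA-Line1 library; that of *ERF1* was also lost without Col-0 replicate 1 (0.54). In the MYC branch 3 of 5 genes were downregulated and 1 was upregulated. *MYC2* had 236 and 311 CPM in Col-0 and 76.8 and 77.5 CPM in MA-Line1 (log2 fold change -1.83, SE 0.11, adjusted p = 1.48e-06), but *AT1G32630* overlaps 98.5% of it, and without strand the reads of the pair cannot be told apart. *VSP2*, a storage protein of this branch, was called at -0.81 and lost the call with robust quasi-likelihood (adjusted p = 0.0602). Of the list of outputs, 3 genes were downregulated, or 5 without Col-0 replicate 1.

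Abscisic acid (ABA) is the hormone of drought. None of the 9 tested receptors was called in edgeR's quasi-likelihood test, with log2 fold changes between -0.24 and 0.16, while 6 of 7 tested PP2C phosphatases, which the receptors inhibit and which ABA itself induces, were downregulated. *HAI1* had 19.0 and 28.1 CPM in Col-0 and 7.14 and 8.02 CPM in MA-Line1 (log2 fold change -1.64, SE 0.17, adjusted p = 3.67e-05). *NCED3*, which makes the rate-limiting step of ABA synthesis, had 6.35 and 8.76 CPM in Col-0 and 1.79 and 1.81 CPM in MA-Line1 (log2 fold change -2.07, SE 0.22, adjusted p = 5.29e-05). A gene of ABA turnover, *CYP707A2*, was lower too (log2 fold change -1.07, adjusted p = 6.67e-05 in edgeR's quasi-likelihood test). Of the 5 genes of ABA synthesis and turnover, 3 were downregulated and 1 was upregulated. Over all 29 genes of the list, 10 were downregulated and 1 was upregulated, with a median of -0.24.

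**Figure D3:**
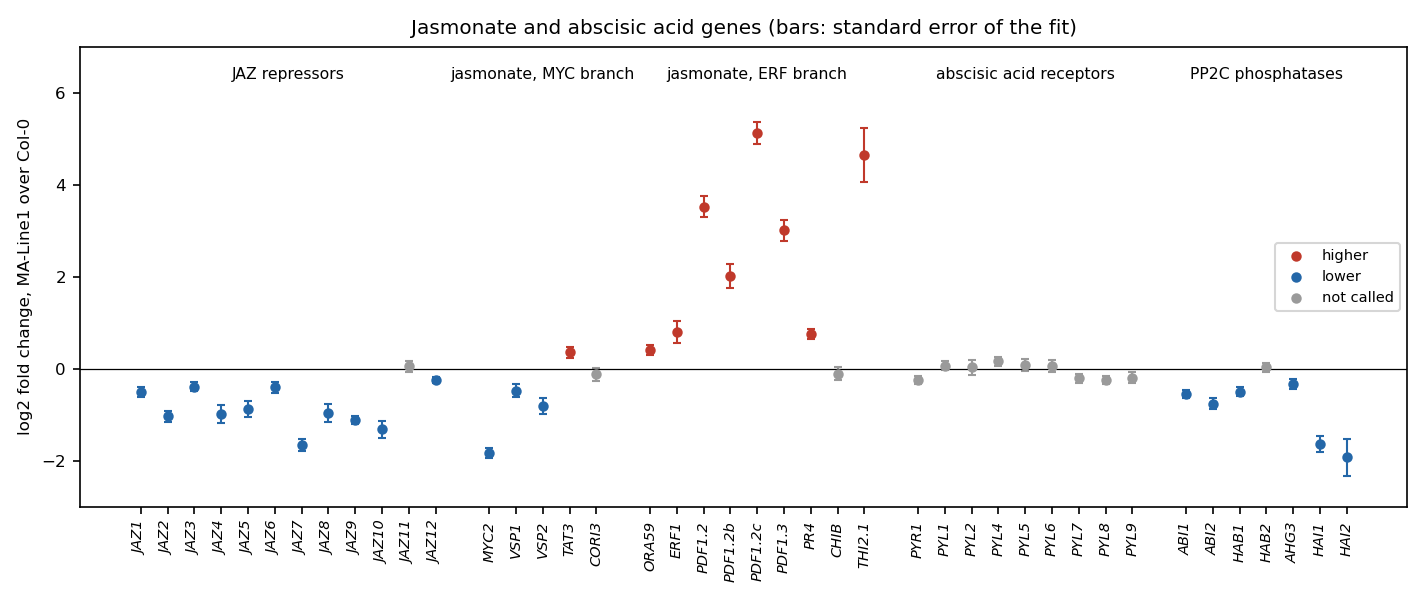
Log2 fold change of MA-Line1 over Col-0 for jasmonate and abscisic acid genes, with bars for the standard error of the fit (red, upregulated; blue, downregulated; grey, not called). *JAZ* genes lay at or below 0.05 and ABA receptors between -0.24 and 0.16, while ERF-branch genes reached 5.13.

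Protective and cold-regulated proteins followed the direction of the phosphatases. Of 14 genes, 10 were downregulated and 1 was upregulated, with a median log2 fold change of -0.73. *RAB18*, a dehydrin, had 75.8 and 100.2 CPM in Col-0 and 12.4 and 9.84 CPM in MA-Line1 (log2 fold change -2.98, SE 0.14, adjusted p = 3.74e-07). *RD29B*, a standard ABA reporter gene, had 7.80 and 7.66 CPM in Col-0 and 1.11 and 0.957 CPM in MA-Line1 (log2 fold change -2.90, SE 0.20, adjusted p = 3.31e-06). *COR47*, another dehydrin, fell by 1.22. *RD29A* was called at -0.56 and lost the call with scaling by library size alone (-0.38), without Col-0 replicate 1 (-0.25) and without either MA-Line1 library. *LTP3* and *LTP4*, lipid transfer proteins of stressed epidermis, fell by 1.89 and 2.46, while *LTP2* and *LTP6* rose by 0.46 and 0.89.

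Rapid stress regulators, which respond within minutes to cold, touch or wounding, were mostly lower. Of 24 genes, 17 were downregulated and 1 was upregulated, with a median log2 fold change of -0.68. *CBF2*, a master factor of cold acclimation, had 26.1 and 26.5 CPM in Col-0 and 4.01 and 3.55 CPM in MA-Line1 (log2 fold change -2.80, SE 0.11, adjusted p = 2.65e-07). Its neighbours *CBF1* and *CBF3* fell by 2.36 and 3.33, on only 283 and 105 counts over the 4 libraries against 3517 for *CBF2*. All 8 *ERF* genes of the list were downregulated. *WRKY40*, a defence-induced factor, had 111 and 144 CPM in Col-0 and 46.4 and 47.8 CPM in MA-Line1 (log2 fold change -1.44, SE 0.11, adjusted p = 5.79e-06).

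Salicylic acid defence moved upward in part. Of 16 genes, 8 were upregulated, or 3 without MA-Line1 replicate 1, and 0 were downregulated in edgeR's quasi-likelihood test. *PR1*, the classical marker of this response, had 18.6 and 27.9 CPM in Col-0 and 79.8 and 73.6 CPM in MA-Line1 (log2 fold change 1.72, SE 0.17, adjusted p = 2.6e-05). *ICS1*, which makes salicylic acid, was not called, with 20.2 and 24.2 CPM in Col-0 and 21.7 and 21.3 CPM in MA-Line1 (adjusted p = 0.749). *SARD1*, a factor that activates *ICS1*, was called at 0.86. *NIMIN1* was called at 1.23 and lost the call in a fit of MA-Line1 and Col-0 alone and without each library other than Col-0 replicate 2.

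Most tryptophan and indole defence genes rose. Camalexin, the main antimicrobial indole of *Arabidopsis*, is made from tryptophan through P450 enzymes that end with PAD3. Of 18 genes, 13 were upregulated and 2 were downregulated, with a median log2 fold change of 0.58. *TSA1*, a tryptophan synthase subunit, had 97.0 and 99.2 CPM in Col-0 and 256 and 246 CPM in MA-Line1 (log2 fold change 1.36, SE 0.07, adjusted p = 5.61e-07). *CYP71A12* had 11.6 and 8.52 CPM in Col-0 and 83.1 and 80.5 CPM in MA-Line1 (log2 fold change 3.03, SE 0.15, adjusted p = 4.08e-07). *PAD3* had 9.38 and 9.99 CPM in Col-0 and 49.5 and 50.6 CPM in MA-Line1 (log2 fold change 2.37, SE 0.10, adjusted p = 2.65e-07). The genotypes did not overlap in any of these genes, as they did not for 70.4% of all genes tested. *AT1G26380*, a berberine bridge enzyme-like gene by family, rose from 19.6 and 17.7 CPM to 76.0 and 76.0 CPM.

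Aliphatic glucosinolate genes, which make the methionine-derived defence compounds, changed little. Of 17 genes, 1 was upregulated and 5 were downregulated, and the downregulated count ranged from 0 to 8 over fits without 1 library. Their median of -0.14 turned to 0.03 with scaling by library size alone and to 0.01 without Col-0 replicate 2. *MYB28*, their main regulator, was not called, at 0.03, and was called without Col-0 replicate 2 (0.27, adjusted p = 0.0123).

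Glutathione transferases (GSTs), which conjugate glutathione to toxins and reactive products, were upregulated in more than the background share. Of 39 tested genes of the tau and phi classes, 23 were upregulated, 15 of them more than 2-fold, and 7 were downregulated, which became 2 and 4 without MA-Line1 replicates 1 and 2. Their summed level was 4210 and 4100 CPM in Col-0 and 6658 and 6963 CPM in MA-Line1. *GSTU12* had 1.17 and 1.07 CPM in Col-0 and 14.0 and 12.1 CPM in MA-Line1 (log2 fold change 3.54, SE 0.17, adjusted p = 3.86e-07). *GSTU4* had 8.73 and 10.2 CPM in Col-0 and 48.6 and 47.8 CPM in MA-Line1 (log2 fold change 2.34, SE 0.16, adjusted p = 2.63e-06). *GSTU3* rose by 3.57 and *GSTU11* by 2.07 on the log2 scale.

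Detoxification and alternative respiration genes rose with them. Of 21 tested, 17 were upregulated and 1, *NAC017*, was downregulated, with a median log2 fold change of 0.83. *AOX1D*, an alternative oxidase that lets mitochondrial electrons bypass the cytochrome chain, had 4.56 and 4.83 CPM in Col-0 and 33.2 and 30.6 CPM in MA-Line1 (log2 fold change 2.76, SE 0.14, adjusted p = 4.21e-07). *AT2G21640*, annotated as a marker of the oxidative stress response, had 6.07 and 7.39 CPM in Col-0 and 28.3 and 27.7 CPM in MA-Line1 (log2 fold change 2.05, SE 0.11, adjusted p = 6.47e-07). *AOX1A*, the stress-induced alternative oxidase, was called at 0.37, which was lost without MA-Line1 replicate 1 (0.33). *AT2G04070*, a MATE efflux transporter, rose by 4.36 and *UGT74E2*, a glycosyltransferase of indole-3-butyric acid, by 2.22 on the log2 scale. The whole families from which such genes come were called lower more often than higher. Of 45 tested MATE efflux genes, 6 were upregulated and 14 were downregulated. The counts were 18 and 31 of 111 UDP-glycosyltransferases and 19 and 63 of 158 cytochrome P450 genes, against 18% and 19.1% of all genes.

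**Figure D4:**
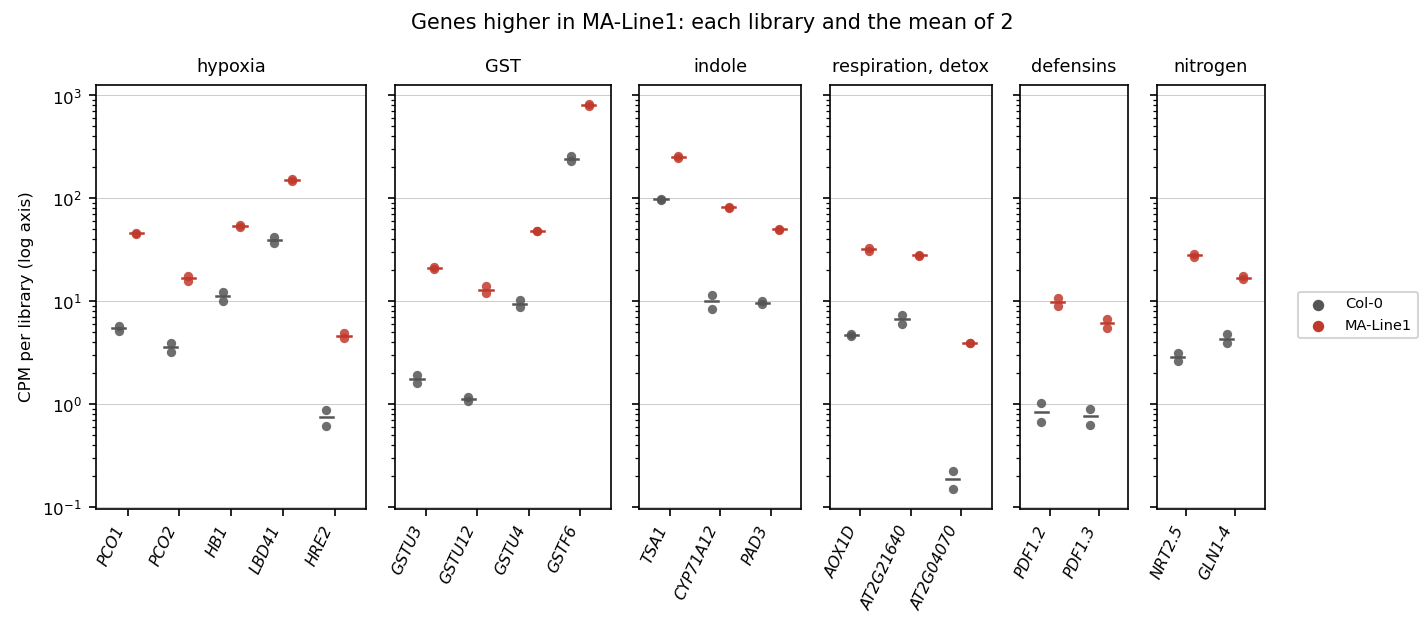
Points are the 2 libraries of each genotype (grey, Col-0; red, MA-Line1), short lines are means, and the vertical axis is CPM on a log axis. In every gene shown both MA-Line1 libraries lay above both Col-0 libraries, as in *GSTU3*, at 1.60 and 1.94 against 21.6 and 20.5 CPM. Over all genes tested the genotypes did not overlap for 70.4%, in either direction.

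Chaperones rose in air without heat. Of 17 heat shock and unfolded protein genes, 14 were upregulated and 1, *HSFA7A*, was downregulated, with a median log2 fold change of 0.90. *HSP23.6*, a mitochondrial small heat shock protein, had 3.16 and 1.18 CPM in Col-0 and 10.5 and 10.6 CPM in MA-Line1 (log2 fold change 2.3, SE 0.31, adjusted p = 0.00024). *HSP90-1* had 48.5 and 52.8 CPM in Col-0 and 142 and 147 CPM in MA-Line1 (log2 fold change 1.51, SE 0.09, adjusted p = 9.72e-07). *HSP17.6* and the HSP20-like gene *AT5G51440* rose by 1.68 and 1.65.

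Flavonoid genes moved both ways. Early steps make all flavonoids and late steps, under TT8 and MYB90, make anthocyanins. Of 12 tested enzymes, 6 were upregulated and 1 was downregulated. The early phenylpropanoid enzymes *PAL1* and *C4H* rose by 0.52 and 0.69. *CHS*, the first committed enzyme and the downregulated one, had a log2 fold change of -0.31, with both MA-Line1 libraries below both Col-0 libraries, and its call was lost with scaling by library size alone (-0.15) and without MA-Line1 replicate 1 (-0.26). *DFR* had 1.81 and 2.83 CPM in Col-0 and 12.7 and 13.5 CPM in MA-Line1 (log2 fold change 2.49, SE 0.19, adjusted p = 5.55e-06). *LDOX*, *UGT79B1* and *TT8* rose by 2.23, 2.59 and 1.88. Over 18 tested genes, 8 were upregulated and 3 were downregulated, and 1 was downregulated with scaling by library size alone or without MA-Line1 replicate 1.

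Nitrogen genes moved both ways. In this list 6 of 26 tested genes were upregulated and 9 were downregulated, and the median of -0.13 turned to 0.03 with scaling by library size alone and to 0.02 without Col-0 replicate 1. *NRT2.5*, a high-affinity nitrate transporter of nitrogen-starved plants, had 2.62 and 3.15 CPM in Col-0 and 26.9 and 28.9 CPM in MA-Line1 (log2 fold change 3.27, SE 0.14, adjusted p = 2.65e-07). *GLN1-4*, a cytosolic glutamine synthetase, had 3.91 and 4.77 CPM in Col-0 and 17.5 and 16.3 CPM in MA-Line1 (log2 fold change 1.96, SE 0.14, adjusted p = 2.88e-06). *GLN1-1*, of the same family, rose by 1.5. *ASN1*, which makes asparagine in the dark, had 272 and 191 CPM in Col-0 and 82.4 and 83.4 CPM in MA-Line1 (log2 fold change -1.48, SE 0.14, adjusted p = 1.96e-05).

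Iron and sulfur genes held a few large changes. *IRT1*, the iron transporter of the root surface, had 5.92 and 1.29 CPM in Col-0 and 0.384 and 0.539 CPM in MA-Line1 (log2 fold change -2.96, SE 0.59, adjusted p = 0.00284), and *FRO2*, the reductase that works with it, fell by 2.51. The Col-0 libraries of *IRT1* lay far apart, and both were above MA-Line1. *F6H1*, which makes the iron-binding coumarin scopoletin, rose from 14.6 and 11.8 CPM to 36.8 and 41.4 CPM (log2 fold change 1.56). In all, 4 of 19 iron genes were downregulated and 2 were upregulated, against 19.1% and 18% of all genes tested. The downregulated count moved when single libraries were left out, so no result is read for iron genes as a set. *FER1* was listed at 0 in every library, and 63.6% of it is overlapped by another gene. Of 12 sulfur limitation genes 8 were upregulated, or 4 and 5 without MA-Line1 replicates 1 and 2, among them *APR3*, a reductase of sulfate assimilation, at 0.81. *SULTR1-1*, a root sulfate transporter, fell by 3.79, on only 100 counts over the 4 libraries.

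Photosynthesis genes fell by small amounts. Of 24 genes for antennae and Rubisco small subunits 21 were downregulated, 0 of them more than 2-fold, and the median log2 fold change was -0.48. The summed level was 136000 and 134400 CPM in Col-0 and 95610 and 101200 CPM in MA-Line1. *CAT2*, the catalase of photorespiration, fell further, from 1775 and 1674 CPM to 657 and 671 CPM (log2 fold change -1.38, SE 0.07, adjusted p = 4.28e-07). Reads of the *LHCB1* and *LHCB2* genes could be split between copies, since 13.7% to 25.9% of the 50-base words of *LHCB1.4*, *LHCB1.5*, *LHCB2.1* and *LHCB2.2* recur, and *LHCB1.5* is overlapped over 100% of its length.

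Ethylene genes moved both ways, with 7 of 24 upregulated and 7 downregulated, and their median of -0.04 turned to 0.12 with scaling by library size alone. *ACS2*, which makes the ethylene precursor, had 1.60 and 1.49 CPM in Col-0 and 5.01 and 6.35 CPM in MA-Line1 (log2 fold change 1.88, SE 0.22, adjusted p = 9.91e-05). *ACO5*, an oxidase of the last step, had 15.5 and 16.8 CPM in Col-0 and 4.08 and 4.85 CPM in MA-Line1 (log2 fold change -1.86, SE 0.13, adjusted p = 3.48e-06). Cell division genes were called higher in 4 of 10 cases, in 2 without Col-0 replicate 2, MA-Line1 replicate 2 or either MC-Line3 library, in 1 without MA-Line1 replicate 1 and in 8 with scaling by library size alone.

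Clock and flowering genes gave a few large changes. *RVE1*, a morning factor that links the clock to auxin, had 45.7 and 46.7 CPM in Col-0 and 15.8 and 17.39 CPM in MA-Line1 (log2 fold change -1.48, SE 0.08, adjusted p = 7.25e-07). Of 14 clock genes 5 were downregulated, or 11 without Col-0 replicate 2, and 4 were upregulated without Col-0 replicate 1. *MAF5*, a floral repressor gene of the *FLC* clade, had 0.168 and 0.113 CPM in Col-0 and 1.52 and 1.34 CPM in MA-Line1 (log2 fold change 3.35, SE 0.40, adjusted p = 0.000104). *FT*, the mobile flowering signal, had 5.69 and 10.0 CPM in Col-0 and 3.74 and 2.4 CPM in MA-Line1 (log2 fold change -1.35, SE 0.29, adjusted p = 0.00458).

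Promoter sequences were searched for the letters of 10 known motifs, on both strands, in a window of 250 bases before and 50 bases after each annotated gene start. The P1BS motif GNATATNC, the site that PHR1 binds, reads the same on both strands and was found in 16 of 40 promoters of the phosphate list (40%), against 6.22% of all 28008 promoters. Among genes that fell more than 2-fold the share was 11.2% of 990 promoters and among those that rose more than 2-fold it was 5.18% of 618. The mitochondrial dysfunction motif (CTTG, then any 5 bases, then CAAG) was in 5 of 22 promoters of the detoxification and respiration list, in 4.21% of the genes that rose more than 2-fold, in 0.808% of those that fell and in 0.846% of all promoters. The W-box TTGACC, bound by WRKY factors, was in 23.8% of the genes that rose more than 2-fold and in 14% of all promoters. The GCC-box GCCGCC, bound by ERF proteins, was in 4.85% of those that rose, in 1.41% of those that fell and in 2.59% of all promoters. The hypoxia-responsive promoter element (AAACCA, then any 3 bases, then GC) was in 7 of 41 promoters of the core hypoxia list. It was in 1 of the 8 hypoxia genes of the study, and in 0.971% of the genes that rose more than 2-fold against 1.05% of all promoters. The free bases of a match can hold the letters of another motif, so the same promoter can count for several motifs. A match is a description of these letters and not a site of binding.

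**Figure D5:**
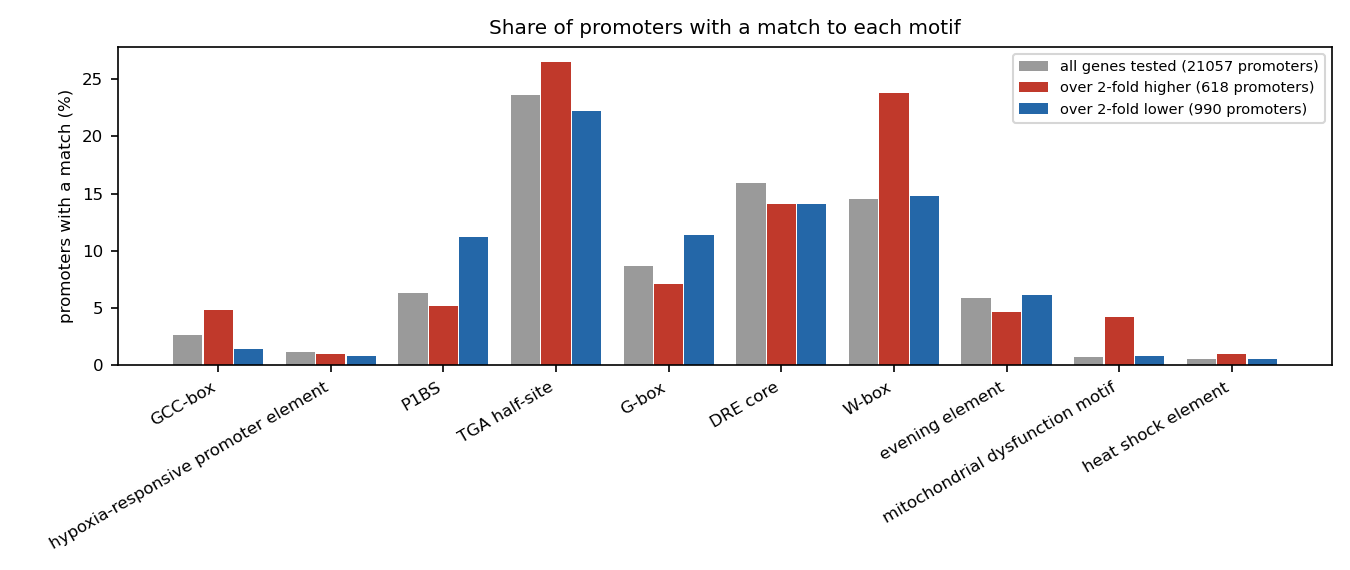
Bars give the share of promoters with a match to each motif, in percent, for all genes tested (grey), DEGs over 2-fold higher (red) and DEGs over 2-fold lower (blue). P1BS was most frequent among the downregulated genes, at 11.2%, and the W-box and mitochondrial dysfunction motifs among the upregulated genes, at 23.8% and 4.21%.

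The promoters of 5 genes that carry these results are shown 5′ to 3′ along the gene, with the match to 1 motif per gene in capitals (P1BS in *SPX3* and *AT4*, the mitochondrial dysfunction motif in *AT2G21640*, the GCC-box in *PDF1.2* and the hypoxia-responsive promoter element in *PCO1*), from the TAIR10.1 genome of RefSeq. *SPX3* (chr2:18606160-18606409, plus strand, 250 bases before the start) and *AT4* (chr5:894332-894581, plus strand) stand for the phosphate genes, *AT2G21640* (chr2:9254128-9254377, plus strand) for the mitochondrial genes and *PDF1.2* (chr5:17907639-17907888, minus strand) for the ERF branch. *PCO1* (chr5:4898641-4898670, plus strand) is shown for the hypoxia genes, and among the 8 that the study named it alone had a match. Its match lies just past the annotated gene start and is read from the opposite strand, so 30 bases are given. Matches to other motifs are left in lower case: a TGA half-site in *SPX3*, a DRE core in *AT4*, and W-boxes and a G-box in *AT2G21640*.
SPX3: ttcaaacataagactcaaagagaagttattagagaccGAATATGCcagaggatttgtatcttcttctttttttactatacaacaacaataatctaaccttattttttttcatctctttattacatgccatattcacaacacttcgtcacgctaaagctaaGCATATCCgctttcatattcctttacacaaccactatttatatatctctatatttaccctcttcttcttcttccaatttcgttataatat
AT4: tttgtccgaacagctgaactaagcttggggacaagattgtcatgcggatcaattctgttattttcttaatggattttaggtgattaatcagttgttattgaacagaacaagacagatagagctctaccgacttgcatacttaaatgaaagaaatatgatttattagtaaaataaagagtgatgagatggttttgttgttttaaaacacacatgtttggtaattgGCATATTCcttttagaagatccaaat
AT2G21640: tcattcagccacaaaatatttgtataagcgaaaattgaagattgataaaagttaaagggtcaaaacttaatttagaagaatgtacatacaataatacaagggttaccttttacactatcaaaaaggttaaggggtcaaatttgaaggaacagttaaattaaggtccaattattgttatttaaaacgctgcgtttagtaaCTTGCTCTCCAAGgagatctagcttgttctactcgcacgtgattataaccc
PDF1.2: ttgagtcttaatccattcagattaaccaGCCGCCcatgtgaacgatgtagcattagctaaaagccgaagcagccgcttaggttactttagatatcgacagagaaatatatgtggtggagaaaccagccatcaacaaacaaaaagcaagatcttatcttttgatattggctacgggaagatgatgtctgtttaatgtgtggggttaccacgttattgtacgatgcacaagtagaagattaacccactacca
PCO1: aaaagaatgGCCCCTGGTTTtgtaatcgat
The 2 P1BS matches of *SPX3* and the single match of *AT4* belong to genes that fell by 3.53 and 3.66, and the matches of *AT2G21640*, *PDF1.2* and *PCO1* to genes that rose by 2.05, 3.53 and 3.07 on the log2 scale.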

How the data were processed

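Poly(A) RNA of whole seedlings was sequenced by the study with a kit that does not mark strand. Per the labels and methods, reads were trimmed, aligned to TAIR10 with TopHat2 and counted with HTSeq. The deposited values are raw counts per gene, and the 6 columns matched the 6 samples by name, with 0 columns left out; the columns of MC-Line3 carry another line number than its label. The authors' strand setting is not given in the sources used here, so overlapping genes are uncertain.

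Counts were tested with edgeR 4.0.16 in R 4.3.3 (quasi-likelihood, TMM, filterByExpr, group means over all 6 libraries, Benjamini-Hochberg adjustment over 21206 genes), with calls at an adjusted p below 0.05. SE is the size of the log2 fold change over the root of F. Of 28775 genes listed, 4158 had no count, and 97.3% matched the RefSeq annotation of TAIR10.1, which also gave promoters, overlaps and shared words of 50 bases. Floors (3 counts) and 95% intervals cover counting error only.

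The members and gene lists were chosen with earlier results of these data known. Named genes are list anchors, up to 4 called members per list with the largest changes, and the 10 largest increases and decreases among called genes with a mean of at least 1 CPM in the higher group and no overlap between groups; any other gene named, the motifs, the promoters shown and the families were chosen after their values were seen. Alternatives covered scaling, filtering, the test (DESeq2 1.42.0 among them), the replicate block and leaving out each library.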

Additional observations from a re-analysis of the deposited data

How the results depend on the processing

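Of 7864 DEGs, 3807 higher and 4057 lower, a test against a 1.5-fold change left 1340 (517 and 823). Dispersion estimated without the genotypes left 0 in edgeR's likelihood ratio test, with 2587 genes at an unadjusted p below 0.05. That estimate counts the differences between genotypes as spread, so it cannot tell whether the calls hold. Scaling by library size alone gave 6954 higher and 2509 lower, 73.5% higher against 48.4%. Leaving out 1 library gave 4379 to 8413 DEGs, 2037 to 4207 higher and 2342 to 4206 lower; the lowest counts came without MA-Line1 replicate 1, and MA-Line1 then has 1 library that is assumed to vary like the others. Of 168 named genes, 25 lost their call without MA-Line1 replicate 1 and 15 without MA-Line1 replicate 2. *TOC1*, a clock gene not called at -0.09, reversed to 0.29 (adjusted p = 0.0101 in edgeR's quasi-likelihood test) without Col-0 replicate 1 and was called at -0.39 without Col-0 replicate 2, and the cause was not tested. With the replicate number as a block 7493 DEGs were called and 1 named gene, *ATE1*, lost its call (adjusted p = 0.0555). Deviations of same-numbered libraries correlated at -0.05, 0.03 and -0.01 between the 3 pairs of genotypes, so the numbers do not pair them.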

Other observations

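Gene families taken by their annotated product, chosen after their values were seen, gave further differences. Of 294 tested genes annotated as ribosomal proteins, 206 were upregulated and 6 were downregulated in edgeR's quasi-likelihood test, with a median log2 fold change of 0.41 and 1 change over 2-fold, against 18% and 19.1% of all genes. Without Col-0 replicate 2, 19 were downregulated. Of 94 receptor-like kinase genes, 25 were upregulated and 13 were downregulated. *CRK36*, a cysteine-rich receptor-like kinase, had 3.59 and 4.98 CPM in Col-0 and 17.1 and 15.7 CPM in MA-Line1 (log2 fold change 1.93). Of 24 tested genes with the domain DUF295, 7 were upregulated, 6 of them more than 2-fold, and 2 were upregulated among genes with at least 10 counts in every library, where the median of 0.17 turned to -0.16.

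Cell wall families were lower. Of 45 extensin and extensin-like genes 24 were downregulated, 17 of them more than 2-fold, and 6 were upregulated. *EXT10*, an extensin, had 8.04 and 8.06 CPM in Col-0 and 1.18 and 1.15 CPM in MA-Line1 (log2 fold change -2.79). Of 25 xyloglucan endotransglucosylase genes, whose products remodel wall polymers during growth, 11 were downregulated, or 6 without MA-Line1 replicate 1, and 3 were upregulated. *XTH14* had 16.5 and 24.1 CPM in Col-0 and 4.55 and 3.90 CPM in MA-Line1 (log2 fold change -2.26). The root hair markers moved in the same direction, from a summed 31.3 and 43.1 CPM to 11.2 and 10.4 CPM, and their part in these families was not tested.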
